A study of Mus musculus with 8 samples.

Results

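Digestion of sugars and absorption of fat are the work of small intestinal enterocytes, and 10 genes of these functions were followed here in colonic epithelial cells: Sis, Lct, Treh, Alpi, Fabp1, Fabp2, Apoa1, Apoa4, Apob and Npc1l1. They were selected by name, and all 10 were among the 35963 gene symbols of the deposited table. RNA came from epithelial cells released with buffer from the proximal part of the colon of mice aged 4 weeks, and gave 4 libraries labelled Ccna2-KO, here called KO-labelled libraries, and 4 control libraries. By the design text, in both groups Ccna2, which encodes cyclin A2 of the cell division cycle, was flanked on both alleles by sites for Cre recombinase (Ccna2 fl/fl). The KO-labelled libraries also carried vil-Cre, a recombinase driven by the promoter of villin, a gene of the intestinal epithelium, so other cells of the isolate are not targeted. The sample labels call the controls wild type. Whether each library came from its own mouse is not stated, and the p-values therefore describe only how far these libraries scatter, which may be technical.

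The gene totals were 25960180 to 33028486 counts per library. Levels are in CPM, the count of a gene scaled to the size of its library. Epcam, a marker of epithelium, was at 1884 ± 86.8 CPM in the controls and 1928 ± 107 CPM in the KO-labelled libraries (SD, n = 4 each). Ccna2 itself lay between 11.9 and 54.3 CPM in the controls and between 16.2 and 26.6 CPM in the KO-labelled libraries (edgeR adjusted p = 0.673). Counts per transcript do not separate the deleted exons from the rest, so directions rest on the labels. In edgeR's quasi-likelihood test, with p-values adjusted over 15893 genes and a threshold of 0.05, 6.40% of all genes were higher and 5.71% were lower in the KO-labelled libraries. The library numbers in the labels form a low set, 595 to 598, with 3 controls and Ccna2-KO replicate 4, and a high set, 621 to 641, with control replicate 1 and Ccna2-KO replicates 1 to 3. Their meaning is not stated, and each set holds 1 library of one group, which is assumed to vary like the others in a fit within a set. Control replicate 1 stood apart from the other 3 controls. Its chi-square per degree of freedom over gene counts was 132 to 160 against each of them, and 21.5 to 46.2 among those 3. Against the KO-labelled libraries it had 111 to 179, a range that overlapped the 65.7 to 133 of the other 3 controls. Control replicate 1 is also the only control of the high set. Values from a fit with a term for the set are called set-adjusted.

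At the surface of enterocytes, microvilli form the brush border, where membrane-bound enzymes cut sugars and remove phosphate groups from nutrients and bacterial products. Dietary fatty acids and cholesterol enter through the same membrane, are carried in the cytosol by fatty acid binding proteins, and leave as chylomicrons, lipid particles built around apolipoprotein B. Many of these genes are read at high levels in the small intestine and at lower levels in the colon, and transcription factors of the HNF4, HNF1, CDX and GATA families are known to act on them.

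The 10 genes did not behave as a block. Sis, Treh, Npc1l1 and Apob rose in the KO-labelled libraries, Fabp2 and Alpi were abundant in both groups with small differences, and Lct, Fabp1, Apoa1 and Apoa4 were at or near the limit of detection. Of the 10, 7 had enough counts to be tested, 4 were called higher and 0 lower. Over all genes the shares were 6.40% and 5.71%, as given above. The same 4 had groups that did not overlap, against 19.0% of all genes tested. A gene that passes the count filter through its high group tends to differ, so the share among the 7 is only a description. Set-adjusted, 5 were higher, with Apoa1 added, and 0 lower, where 9.29% and 8.90% of all genes were called. Within the high set Sis, Treh, Npc1l1 and Apob were called higher, with log2 fold changes of 3.59, 2.41, 2.18 and 1.46. Within the low set all 4 values were positive, Sis (2.08) and Npc1l1 (2.05) were called, and Treh (edgeR adjusted p = 0.130) and Apob (adjusted p = 0.105) were not called. Without control replicate 1 all 4 were called, with values from 0.94 for Apob to 2.34 for Sis. The fits within a set were added after seeing the data.

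The sequences before the start sites of the 4 genes that rose are shown with that of Alpi, a brush border gene whose difference was not called. All 10 genes matched a promoter entry of RefSeq on GRCm38.p6, of which the 250 bases before the start were read. Capitals mark any match to a searched motif on either strand: GTTAAT for HNF1, CAAAGTCC for HNF4, CNATAAA for CDX, AGATAA for GATA and TATAAA for the TATA box. The Apob stretch ends where another annotated model of the gene begins.
Sis, chr3:72967864-72968113, minus strand: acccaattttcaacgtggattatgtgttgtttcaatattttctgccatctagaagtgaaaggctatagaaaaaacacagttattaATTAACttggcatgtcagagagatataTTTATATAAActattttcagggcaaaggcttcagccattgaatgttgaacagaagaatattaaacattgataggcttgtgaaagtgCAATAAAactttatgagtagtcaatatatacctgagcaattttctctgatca
Treh, chr9:44672983-44673232, plus strand: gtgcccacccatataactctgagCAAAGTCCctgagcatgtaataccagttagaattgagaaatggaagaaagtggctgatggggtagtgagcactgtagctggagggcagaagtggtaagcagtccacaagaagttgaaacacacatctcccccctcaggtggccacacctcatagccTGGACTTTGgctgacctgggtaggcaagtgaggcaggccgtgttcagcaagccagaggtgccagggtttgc
Npc1l1, chr11:6230246-6230495, minus strand: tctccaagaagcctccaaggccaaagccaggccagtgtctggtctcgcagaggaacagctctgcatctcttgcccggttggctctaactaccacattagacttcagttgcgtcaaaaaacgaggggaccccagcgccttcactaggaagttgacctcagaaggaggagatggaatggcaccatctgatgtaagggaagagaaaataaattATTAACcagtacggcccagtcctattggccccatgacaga
Apob, chr12:7977427-7977628, plus strand: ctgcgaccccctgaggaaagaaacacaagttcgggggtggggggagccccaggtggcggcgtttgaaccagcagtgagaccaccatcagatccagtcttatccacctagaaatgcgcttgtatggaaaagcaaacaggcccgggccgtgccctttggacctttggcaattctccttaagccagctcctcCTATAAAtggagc
Alpi, chr1:87101607-87101856, minus strand: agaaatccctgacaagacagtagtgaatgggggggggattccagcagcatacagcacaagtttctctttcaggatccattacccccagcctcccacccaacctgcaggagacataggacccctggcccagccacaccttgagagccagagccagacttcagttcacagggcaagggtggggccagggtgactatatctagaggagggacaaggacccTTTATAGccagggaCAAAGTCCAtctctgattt

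No searched motif was found in all 4 genes that rose. The HNF1 letters GTTAAT were found before Sis, 160 to 165 bases upstream, and before Npc1l1, 35 to 40 bases upstream, and 6.43% of the 32851 promoters in the table hold them. Fabp1, which did not pass the count filter, also held these letters, 102 to 107 bases upstream, so 3 of the 10 genes held them. Treh held the HNF4 letters CAAAGTCC at 2 places, and the longer CAAAGTCCA at 63 to 71 bases upstream. The longer form was also found before Alpi, 11 to 19 bases upstream, and is held by 0.384% of all promoters (1.20% for the shorter form). Sis held the CDX letters at 46 to 52 bases upstream. Those of Apob and Alpi overlap their TATA box letters, and 9.81% of all promoters hold the CDX letters and 12.4% the TATA box letters. Fabp1 and Fabp2 also held the CDX letters, so 5 of the 10 genes held them. The GATA letters were not found before any of the 5 genes shown but before 1 of the 10, Lct, and 9.99% of all promoters hold them. The full HNF1 palindrome was in 0 of the 10 promoters and 0.0609% of all. These matches are letters in a window and show no binding.

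The disaccharidases Sis and Treh rose. Sis (chromosome 3, 72888557 to 72967863 on GRCm38) encodes sucrase-isomaltase, which splits sucrose and the branch points of starch. Its level was 3.03, 7.90, 8.70 and 4.24 CPM in control replicates 1 to 4. In Ccna2-KO replicates 1 to 4 it was 40.1, 41.5, 28.6 and 29.7 CPM. Each KO-labelled library therefore lay above every control, with replicates 1 and 2 the highest. The fitted change was 5.86-fold, a log2 fold change of 2.55 ± 0.32 (SE; edgeR adjusted p = 0.00184), and 2.78 ± 0.40 set-adjusted (adjusted p = 0.00349).

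Treh (chromosome 9, 44673233 to 44686305) encodes trehalase, the enzyme that splits the disaccharide trehalose. Its control levels were 0.871, 2.31, 1.08 and 0.515 CPM, from 17 to 58 counts a library. In the KO-labelled libraries they were 5.29, 4.59, 4.09 and 6.47 CPM, from 131 to 165 counts. The groups did not overlap, and control replicate 2 was the nearest to the other group. The log2 fold change was 2.11 ± 0.41 (4.32-fold; edgeR adjusted p = 0.0110), and 2.37 ± 0.42 set-adjusted (adjusted p = 0.00532).

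**Figure D1:**
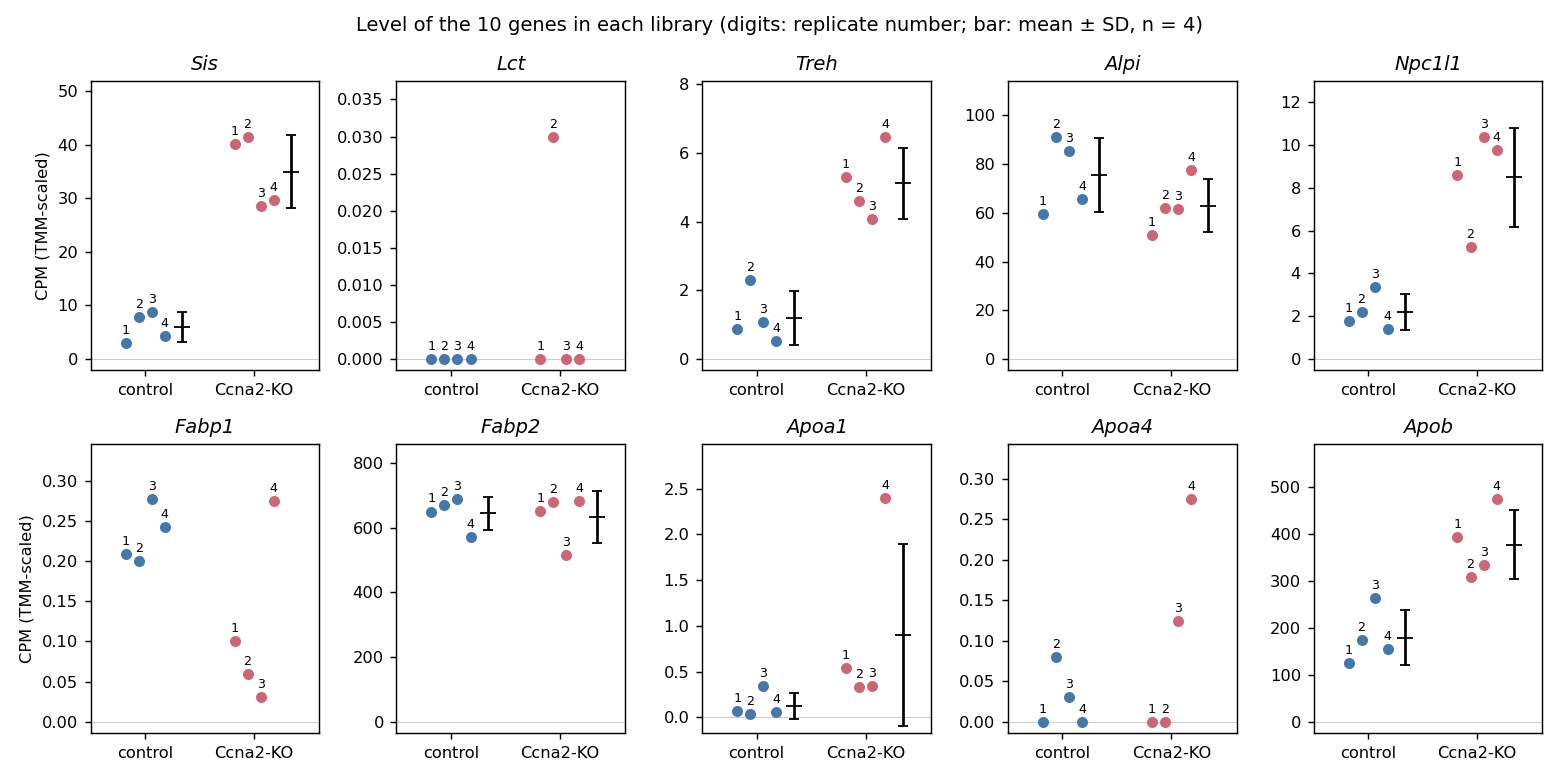
Level of each gene in CPM (vertical axes, each with its own scale) in the 4 control and 4 Ccna2-KO libraries, with replicate numbers beside the points and the mean ± SD for genes that passed the count filter. The groups are apart for Sis, Treh, Npc1l1 and Apob and overlap for the other 6 genes.

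Lct and Alpi, the other brush border members, did not follow. Lct (chromosome 1, 128284756 to 128328318) encodes lactase, which digests milk sugar. It had 0 counts in the 4 controls, which allows up to 0.0251 CPM over the group for counting error alone, and 1 count in total in the KO-labelled libraries, in replicate 2. No fold change is given for it. Alpi (chromosome 1, 87098002 to 87101606) encodes an intestinal alkaline phosphatase that detoxifies bacterial lipopolysaccharide. It stood at 59.7, 91.3, 85.2 and 65.6 CPM in the controls and at 50.7, 61.9, 61.8 and 77.4 CPM in the KO-labelled libraries. The ranges overlapped, and the log2 fold change was -0.26 ± 0.17 (edgeR adjusted p = 0.376), and -0.05 ± 0.13 set-adjusted. Akp3, a related phosphatase gene with which reads could be confused, was near the limit of detection, at means of 0.0453 and 0.0280 CPM.

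Transcript models were used unevenly for both disaccharidases. The table holds 2 RefSeq models of Sis. In control replicate 1 all 87 counts were assigned to the curated model (NM_001081137.1), which took at most 1.98% of the counts of any other library. The predicted model (XM_006502044.1) took 98.0% to 100% in the other 7 libraries. Of the 6 models of Treh, the predicted XM_006510516.3 took 100% of the counts of control replicates 1 and 3, 63.9% in control replicate 4 and 8.39% in control replicate 2. It took 0% in each KO-labelled library, where the curated NM_021481.3 took 90.6%, 91.5%, 70.3% and 100% in replicates 1 to 4. In the controls NM_021481.3 had counts only in replicate 2, at 71.3%. Kallisto divides reads that fit several models by estimation, and the Treh counts of the controls are few. When each gene was represented by its most counted model alone, neither change was called, with log2 fold changes of 2.73 ± 0.87 for Sis (edgeR adjusted p = 0.108) and 3.53 ± 1.33 for Treh (adjusted p = 0.164).

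**Figure D2:**
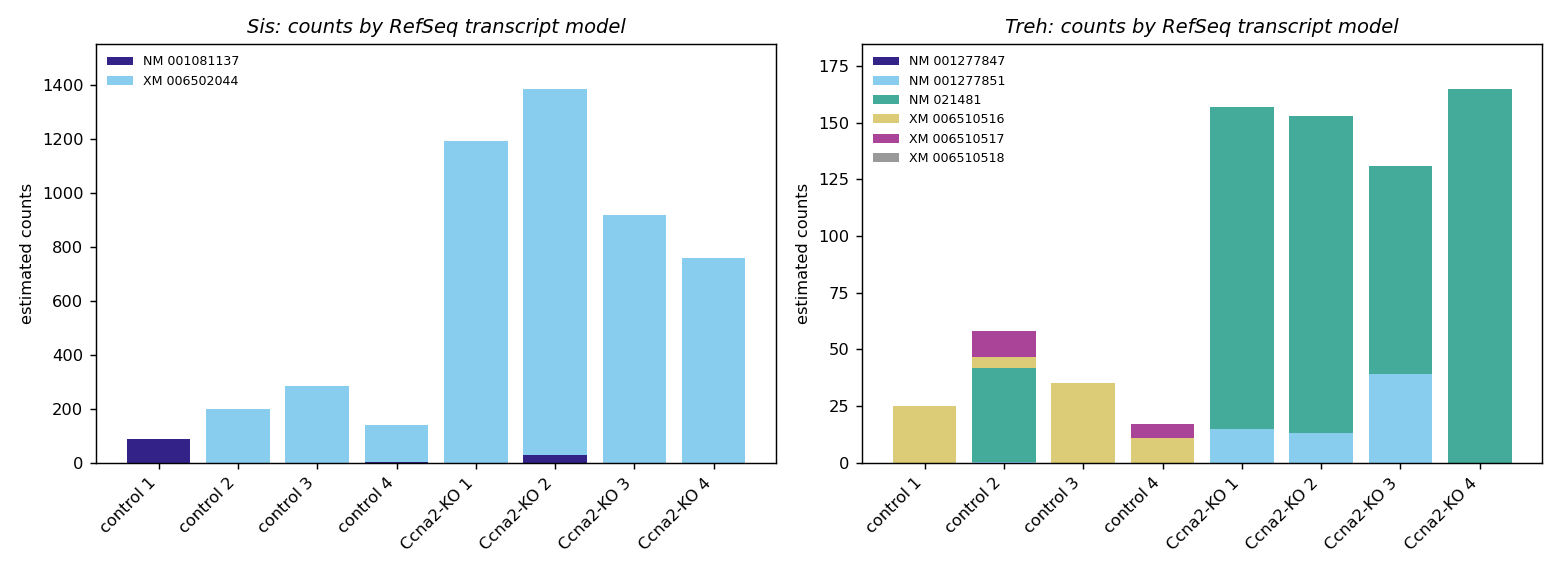
Estimated counts (vertical axes, from 0) assigned to each RefSeq transcript model of Sis and Treh in every library, stacked by model. Control replicate 1 stands alone in the model its Sis counts went to, and the Treh models of the KO-labelled libraries differ from those of control replicates 1, 3 and 4.

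Among the genes of lipid uptake and binding, Npc1l1 rose and Fabp2 was level. Npc1l1 (chromosome 11, 6211011 to 6230245) encodes the brush border transporter of dietary cholesterol that is the target of ezetimibe. Control levels were 1.78, 2.19, 3.35 and 1.42 CPM. Levels in the KO-labelled libraries were 8.59, 5.22, 10.4 and 9.77 CPM. The groups did not overlap, with Ccna2-KO replicate 2 and control replicate 3 closest to each other. The log2 fold change was 1.95 ± 0.31 (3.87-fold; edgeR adjusted p = 0.00511), and 2.12 ± 0.33 set-adjusted (adjusted p = 0.00321).

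Fabp2 (chromosome 3, 122895072 to 122899506) encodes the intestinal fatty acid binding protein. It was the most abundant of the 10 genes, at 649, 669, 687 and 571 CPM in the controls and 652, 679, 516 and 683 CPM in the KO-labelled libraries. The log2 fold change of -0.03 ± 0.13 was far inside the spread between libraries (edgeR adjusted p = 0.924). Fabp1 (chromosome 6, 71199879 to 71205034), the liver-type fatty acid binding protein that is abundant in small intestinal enterocytes, had only 6, 5, 9 and 8 counts in the controls. The KO-labelled libraries had 3, 2, 1 and 7 counts. Ccna2-KO replicate 4 lay within the control range and the other 3 below it, at 0.0312 to 0.101 CPM against 0.200 to 0.277 CPM. Fabp1 did not pass the count filter, and in the fit without a filter its log2 fold change was -1.05 ± 0.57 (edgeR adjusted p = 0.364).

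The apolipoproteins divided by abundance. Apob (chromosome 12, 7977629 to 8016839) encodes apolipoprotein B, the structural protein of chylomicrons. It was at 125, 173, 263 and 155 CPM in the controls and at 394, 307, 334 and 474 CPM in the KO-labelled libraries. The groups did not overlap, and control replicate 3 was the highest control for Apob as it was for Sis and Npc1l1. The log2 fold change was 1.07 ± 0.23 (2.10-fold; edgeR adjusted p = 0.0175), and 1.36 ± 0.19 set-adjusted (adjusted p = 0.00204). Without control replicate 4 the call was lost, at 1.01 ± 0.26 (adjusted p = 0.0566).

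Apoa1, Apoc3, Apoa4 and Apoa5, which encode proteins of chylomicrons and high-density lipoprotein, lie side by side on chromosome 9, between 46228630 and 46271921, and all 4 were scarce. Apoa1 had 2, 1, 11 and 2 counts in the controls and 16, 11, 11 and 61 in the KO-labelled libraries. Control replicate 3 held most of the control counts and Ccna2-KO replicate 4 most of the others, and the groups overlapped by their CPM. The Apoa1 log2 fold change of 2.70 ± 0.87 was not called (edgeR adjusted p = 0.0766). Set-adjusted it was called, at 3.66 ± 0.59 (adjusted p = 0.00356), as it was by DESeq2 (2.80 ± 0.89, adjusted p = 0.0129). Leaving out Ccna2-KO replicate 4 gave 1.58 and leaving out control replicate 3 gave 3.84, so the size rests on these libraries. Within the low number set, where Ccna2-KO replicate 4 is the only KO-labelled library, the Apoa1 log2 fold change was 3.92.

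Apoa4 had 3 counts in the control group and 11 in the KO-labelled group, of which 4 were in replicate 3 and 7 in replicate 4. The ratio was 3.63, with a 95% counting interval of 0.958 to 20.3 that covers counting error only. Apoc3 had 3 control counts, all in replicate 1, and counts of 4, 3, 2 and 5 in the KO-labelled libraries. Apoa5 had 8 and 13 counts. The ratio of Apoc3 was 4.62, with a counting interval of 1.29 to 25.1, and that of Apoa5 was 1.61 (0.618 to 4.47). None of the 3 genes passed the count filter, and in the fit without a filter none was called (edgeR adjusted p of 0.271 for Apoc3 and higher for the others).

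**Figure D3:**
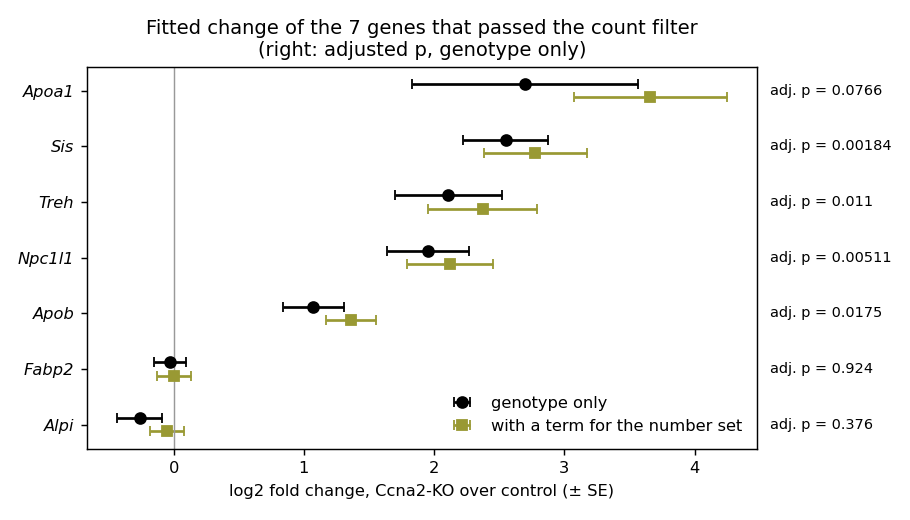
Fitted log2 fold change, Ccna2-KO over control, with SE for the 7 genes that passed the count filter, from the fit of genotype alone (circles) and from the set-adjusted fit (squares). Sis, Treh, Npc1l1 and Apob lie above 1 in both fits, Fabp2 and Alpi near 0, and Apoa1 has the widest error in the fit of genotype alone.

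Per length, the order of the 10 genes by their means was nearly the same in both groups, though much of it was not resolved. CPM was divided by the length in kilobases of a curated transcript of each gene in GENCODE. For Sis that transcript took at most 1.98% of the counts of any library but control replicate 1. For Treh it had counts in only replicate 2 of the controls. The predicted models had no length there, so the values of these genes rest on the curated length. In the controls the means were 668 CPM per kilobase for Fabp2, 32.3 for Alpi, 12.9 for Apob, 1.01 for Sis, 0.583 for Treh and 0.489 for Npc1l1. Fabp1 followed at 0.419, then Apoa1 at 0.123, Apoa4 at 0.0152 and Lct at 0. The ranges of Sis, Treh, Npc1l1 and Fabp1 overlapped from each to the next, so their order in the controls is not resolved. Those of Apoa1, Apoa4 and Lct overlapped likewise. In the KO-labelled libraries, Apob (27.1) and Alpi (26.9) overlapped, where in the controls Apob lay below Alpi. Sis, at 5.94 CPM per kilobase, stood above Treh (2.50) and Npc1l1 (1.90), whose ranges overlapped. By its mean Apoa1 (0.871) came before Fabp1 (0.211) in the KO-labelled libraries. The ranges of Npc1l1, Apoa1, Fabp1, Apoa4 and Lct overlapped from each to the next there. The rise in Sis left it far below Fabp2, at 655 CPM per kilobase in these libraries.

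Levels of the genes that rose moved together across the 8 libraries, which share the genotype difference. Pearson's r of log2 CPM was 0.93 for Sis with Treh, 0.91 for Sis with Npc1l1, 0.92 for Sis with Apob and 0.94 for Npc1l1 with Apob (n = 8 libraries). After subtracting group means the values were 0.55, 0.35, 0.62 and 0.75. Treh then had 0.41 with Npc1l1 and 0.35 with Apob. Alpi, whose difference was not called, had -0.29, -0.17, -0.27 and -0.13 with Sis, Treh, Npc1l1 and Apob. After subtracting group means it had 0.54, 0.66, 0.48 and 0.63, so moving together within groups was not particular to the genes that rose. Apob and Apoa1 had 0.91, and 0.80 after subtracting group means. Fabp2 had values of -0.09 to 0.14 with Sis, Treh, Npc1l1 and Apob, and 0.45, 0.56, 0.04 and 0.38 after subtracting group means. Among 11841 other genes with a mean log2 CPM of at least 1, those most like Sis included Gm40820 (r = 0.985) and Lrrc8b (0.982). Those most like Npc1l1 were Sprr2a2 (0.989), Slc16a3 (0.989) and Sec23ip (0.987). Sec23ip had a log2 fold change of 0.13 that was not called (edgeR adjusted p = 0.321).

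Genes that make and load chylomicrons rose in part. Of 18 genes of triglyceride resynthesis and chylomicron assembly, 16 were tested. Of these, 5 were higher and 0 lower, where 6.40% and 5.71% of all genes were. The median log2 fold change of the list was 0.41 against -0.01 over all genes tested. Apoc2, which encodes the activator of lipoprotein lipase carried on chylomicrons, was at 5.09, 2.99, 3.78 and 1.97 CPM in the controls. It was at 29.0, 30.6, 21.8 and 40.6 CPM in the KO-labelled libraries, all above every control (3.14 ± 0.30, edgeR adjusted p = 0.000435). Mogat2, the acyltransferase that starts triglyceride rebuilding in enterocytes, went from a range of 5.30 to 8.39 CPM to one of 13.0 to 25.2 CPM (1.44 ± 0.23, adjusted p = 0.00479). Mttp, which encodes the transfer protein that loads lipid on apolipoprotein B, went from a range of 1.24 to 1.97 CPM to one of 2.40 to 6.37 CPM (1.43 ± 0.32, adjusted p = 0.0199). Acsl5, a fatty acid activating enzyme, rose by 0.57 ± 0.11 (adjusted p = 0.0114). Apobec1, which edits the Apob transcript into its short intestinal form, rose from 40.7 to 65.1 CPM on average (0.68 ± 0.18, adjusted p = 0.0414). Counts do not show the editing itself. The number called higher was 8 without control replicate 1 and 3 without control replicate 2, control replicate 4 or Ccna2-KO replicate 3. The call of Mttp was lost without any of the latter 3, and that of Apobec1 in 6 of 8 such fits, all but those without control replicate 1 or 3 (adjusted p up to 0.102).

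Other brush border enzymes, transporters and lipid carriers were called in both directions. Of 18 further enzymes and receptors of the brush border, 16 were tested, 2 were higher and 1 lower (median 0.19). Over all genes, 6.40% were higher and 5.71% lower. Enpep, an aminopeptidase, rose from a mean of 22.0 to 103 CPM (2.23 ± 0.51, edgeR adjusted p = 0.0230), and Mep1b, a subunit of the protease meprin, by 0.70 ± 0.18 (adjusted p = 0.0370). Xpnpep2, a further peptidase, fell by 0.88 on the log2 scale (SE 0.25, adjusted p = 0.0480). None of these 3 calls held in every fit that left out 1 library, and without control replicate 4, Ccna2-KO replicate 1 or Ccna2-KO replicate 3 none of the 18 was called higher. The call of Xpnpep2 was lost in 7 of 8 such fits. Set-adjusted, 3 genes of this list were higher and 0 lower, where 9.29% and 8.90% of all genes were. Of 16 genes of lipid, sterol and bile acid transport, 1 was higher and 1 lower, close to the shares of all genes. Slc10a2, the ileal bile acid transporter, was at 88.1 to 224 CPM in the controls and 269 to 474 CPM in the KO-labelled libraries (1.33 ± 0.30, adjusted p = 0.0217). Its call was lost without the same 3 libraries (adjusted p up to 0.0628). Slc27a2, a fatty acid transport protein, was at 3.73 to 5.83 CPM in the controls and 0.472 to 0.593 CPM in the KO-labelled libraries (-2.99 ± 0.24, adjusted p = 0.000193). Scarb1, a lipoprotein receptor, had 0.92 ± 0.27 and was not called (adjusted p = 0.0533), but was without control replicate 1 or Ccna2-KO replicate 4.

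Of 12 small intestinal transporters of sugars, peptides and amino acids, 9 were tested, 4 were higher and 2 lower (median 0.37). Over all genes, 6.40% were higher and 5.71% lower. Slc7a9, the light subunit of the cystine and dibasic amino acid exchanger, rose from a mean of 4.13 to 15.4 CPM (1.90 ± 0.26, edgeR adjusted p = 0.00233). Slc6a19, the main neutral amino acid transporter of enterocytes, rose from 1.68 to 6.40 CPM (1.93 ± 0.38, adjusted p = 0.0120), and Slc7a7, which exports dibasic amino acids, by 0.39 ± 0.10 (adjusted p = 0.0342). Slc5a4b, of the sodium-glucose cotransporter family, rose by 1.49 ± 0.26 (adjusted p = 0.00664), although reads of its close copy Slc5a4a could be shared with it. Slc6a20a, a proline transporter, changed the other way by -2.27 ± 0.30 (adjusted p = 0.00198), as did Slc15a1, the peptide transporter, by -1.05 ± 0.29 (adjusted p = 0.0459). Slc6a19, Slc7a7 and Slc15a1 are named after their values were seen. The call of Slc6a19 held with each library left out, that of Slc7a7 only without control replicate 1 and that of Slc15a1 only without control replicate 4. The call of Slc6a20a held with each library left out, and it was the 1 gene called lower without control replicate 1, 2 or 3 or without any single KO-labelled library.

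In the fit of genotype alone, the scaffold of the brush border was mostly level. Of 16 genes listed for the microvillus, 1 was higher and 1 lower, where 6.40% and 5.71% of all genes were. The median log2 fold change of the list was 0.14. The gene called higher, Plb1, is no part of the scaffold but encodes a membrane phospholipase of the brush border that digests lipids. It was at 0.139 to 0.519 CPM in the controls and 1.29 to 4.41 CPM in the KO-labelled libraries (3.22 ± 0.49, edgeR adjusted p = 0.00411). Ush1c, a scaffold of the links between microvilli, fell by 0.51 on the log2 scale (SE 0.11, adjusted p = 0.0157), a call lost without Ccna2-KO replicate 1, 2 or 3. Pls1, an actin bundler, had 0.40 ± 0.16 and was not called (adjusted p = 0.150). Set-adjusted, Pls1 was called higher, at 0.62 ± 0.13 (edgeR adjusted p = 0.0124). In that fit 6 microvillus genes were higher and 1 lower (median 0.34), where 9.29% and 8.90% of all genes were.

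Colonic absorptive genes were called at about the share of all genes in the fit of genotype alone. Of 18, 17 were tested, 1 was higher and 1 lower (median 0.31), where 12.1% of all genes were called. Car2, a carbonic anhydrase, rose by 0.54 ± 0.11 (edgeR adjusted p = 0.0141) and Hsd11b2, which protects the mineralocorticoid receptor from glucocorticoids, fell by 0.75 on the log2 scale (SE 0.18, adjusted p = 0.0249). Best2, a channel of colonic goblet cells, had a level of 21.8 CPM in control replicate 1, against 1.30 to 3.23 CPM for control replicates 2 to 4 and 0.531 to 1.08 CPM for the KO-labelled libraries. Its log2 fold change of -3.18 ± 0.91 was not called (adjusted p = 0.0521). Without control replicate 1 it was -1.42 ± 0.38 and called (adjusted p = 0.0209). It was also called without control replicate 2 or 4, set-adjusted and by DESeq2. The summed level of the 18 genes was 26664 to 43434 CPM in the controls and 39535 to 47665 CPM in the KO-labelled libraries. Set-adjusted, 3 were higher and 4 lower, where 9.29% and 8.90% of all genes were. The calls of Car2 and Hsd11b2 were lost without Ccna2-KO replicate 3, and that of Hsd11b2 also without replicate 1 or 2 of that group.

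Transcription factors known to act on these genes differed one from another. Of 18 listed, all were tested, 3 were higher and 1 lower (median -0.15), where 6.40% and 5.71% of all genes were. Pdx1, a factor of the duodenum and pancreas, was at 0.0308 to 0.174 CPM in the controls and 0.989 to 1.33 CPM in the KO-labelled libraries (3.70 ± 0.41, edgeR adjusted p = 0.00101). Maf, which acts in small intestinal enterocytes, rose from 5.36 to 8.08 CPM in the controls to 15.4 to 19.9 CPM (1.42 ± 0.17, adjusted p = 0.00139). Gata4, a factor of the proximal small intestine, was at 0.922 to 2.39 CPM in the controls and at 4.72, 1.83, 6.65 and 11.5 CPM in Ccna2-KO replicates 1 to 4. Its groups overlapped through replicate 2 (2.18 ± 0.54, adjusted p = 0.0311), and the call was lost in 5 of 8 fits that left out 1 library: control replicate 2 or 3, or Ccna2-KO replicate 1, 3 or 4. Hnf4a, a main regulator of enterocyte genes, differed by 0.02 ± 0.15 (adjusted p = 0.963), a difference that takes either sign when single libraries are left out. Hnf4g had -0.65 ± 0.21 (adjusted p = 0.0731) and Cdx2 -0.33 ± 0.14 (adjusted p = 0.174), neither called. Hnf4g was called lower by DESeq2 (adjusted p = 0.0296). By edgeR it was called lower without control replicate 1 (-0.78 ± 0.18, adjusted p = 0.0117) or Ccna2-KO replicate 4 (-0.82 ± 0.20, adjusted p = 0.0350). Without control replicate 1 or Ccna2-KO replicate 4, 3 of the factors were lower.

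**Figure D4:**
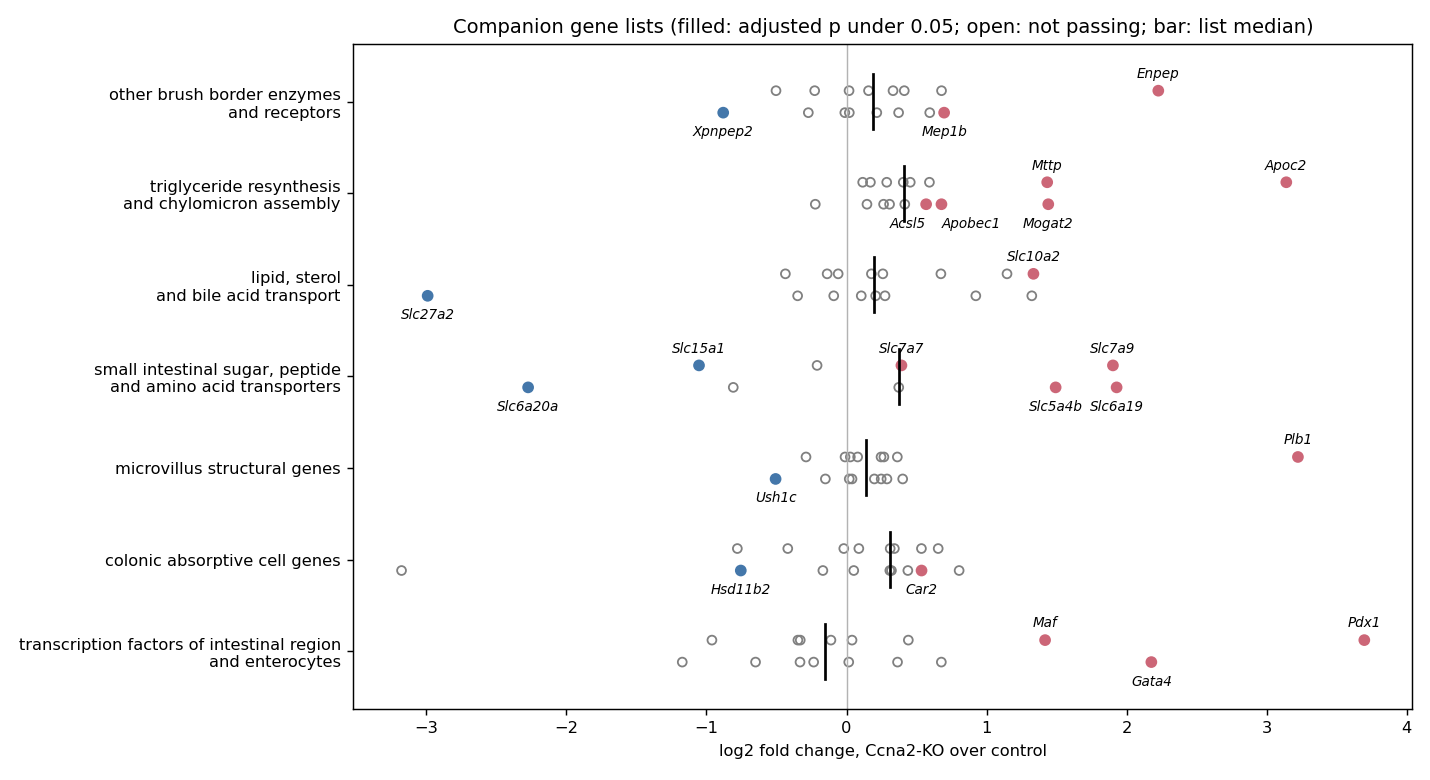
Log2 fold change, Ccna2-KO over control (horizontal axis), of the tested genes in 7 companion lists (2 transcription factors are not drawn), filled where the edgeR adjusted p is under 0.05, with medians of the whole lists as bars. Apoc2, Plb1 and Pdx1 lie above 3 and Slc27a2 near -3, and open points are the majority in each list except that of the transporters, where 6 of 9 are filled.

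Markers of other cells that could carry these transcripts were counted beside them. Hepatocytes also make Apob, Apoa1 and Fabp1. Of 13 hepatocyte genes, 3 (Fga, Fgb and Fgg) had 0 counts in all libraries and Alb averaged 0.284 and 0.273 CPM. Only 4 were tested, of which Cps1, also an enterocyte gene, was higher (1.54 ± 0.43, edgeR adjusted p = 0.0468), a call lost in 6 of 8 fits that left out 1 library, all but those without control replicate 1 or Ccna2-KO replicate 2. Of the others, Ttr had 10.2 CPM in control replicate 1, against 1.09 to 1.23 CPM for control replicates 2 to 4 and 1.53 to 2.26 CPM for the KO-labelled libraries (-0.85 ± 0.73). Without control replicate 1 Ttr was called higher (0.72 ± 0.23, adjusted p = 0.0414), and 2 hepatocyte genes were then higher. Tat had -0.07 ± 0.32. Of 11 pancreatic acinar genes only Cela1 was tested (-1.03 ± 0.55, adjusted p = 0.272). Paneth cells mark the small intestine, and of 14 genes listed for them 10 were tested. Of these, 5 were higher and 1 lower (median 1.27), where 6.40% and 5.71% of all genes were. Mmp7, a protease that activates defensins, had 4.86 ± 0.55 (adjusted p = 0.00107) and Itln1, an intelectin, 2.48 ± 0.49 (adjusted p = 0.0115). Defa24, a defensin of a family of near-identical copies, had 0 counts in the controls and 559 in the KO-labelled libraries, at least 184-fold higher against a floor of 3 counts over the control group. Named after their values were seen, Ang4 (1.87 ± 0.50, adjusted p = 0.0392) and Pla2g2a (3.85 ± 0.84, adjusted p = 0.0181) were the others called higher and Mptx1 (-6.84 ± 1.87, adjusted p = 0.0430) the one lower. The call of Pla2g2a was lost without control replicate 3 or Ccna2-KO replicate 3. Ang4 was called only without control replicate 1 or Ccna2-KO replicate 4, and Mptx1 only without control replicate 2 or 4, among fits that left out 1 library. The summed level of the 14 genes overlapped, at 221 to 554 CPM in the controls and 169 to 723 CPM in the other group. The list as a whole is therefore not absent from control colon. Without control replicate 3 or Ccna2-KO replicate 3, 3 Paneth genes were higher.

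T cell and leukocyte genes were lower, with 10 of 10 called and a median log2 fold change of -2.88, where 5.71% of all genes were lower. Set-adjusted, 8 were lower, and 7 to 10 with single libraries left out. Ccl5, a chemokine, changed by -3.40 ± 0.42 (edgeR adjusted p = 0.00160), Cd2, an adhesion receptor, by -2.93 ± 0.43 (0.00353) and Cd3g, of the T cell receptor complex, by -2.84 ± 0.42 (0.00370). Their summed level was 38.2 to 189 CPM in the controls, lowest in replicate 1, and 10.1 to 23.96 CPM in the KO-labelled libraries. Of 8 macrophage genes, 7 were tested and 1, Cd68, was higher, where 6.40% of all genes were. Cd68 had 1.13 ± 0.28 (edgeR adjusted p = 0.0313), and its call was lost without control replicate 2, 3 or 4 or Ccna2-KO replicate 2 or 3. Cd14 had -0.73 ± 0.26 and C1qa -0.50 ± 0.41, neither called. Set-adjusted, Cd14 was called lower (-1.06 ± 0.16, edgeR adjusted p = 0.00288) and Cd68 was not called (0.91 ± 0.30, adjusted p = 0.0601). Of 9 fibroblast and muscle genes, 5 were tested and 1, Des, was higher (2.01 ± 0.36, adjusted p = 0.00795), with Col3a1 at 1.45 ± 0.51 and Col1a1 at 0.81 ± 0.39, not called. None of the 7 epithelial genes was called by edgeR, with Cdh17 at 0.22 ± 0.14, Cldn7 at -0.16 ± 0.13 and Cdh1 at 0.14 ± 0.13. The part of these cells in the rise of Sis, Treh, Npc1l1 and Apob was not tested. In bulk RNA, fewer cells of a type and less RNA per cell cannot be told apart.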

How the data were processed

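The authors' deposited table gives, for each RefSeq transcript, an unscaled estimated count. Kallisto made it, on GRCm38 (mm10), per the submitters' processing notes, and the sources used here do not give its version. The 687 rows without a symbol (3.19% to 5.51% of counts) were left out. Transcripts of a symbol were added and the sum rounded to a whole number. Groups were tested by the quasi-likelihood method of edgeR 4.0.16 (R 4.3.3), its filterByExpr filter, TMM scaling, robust dispersions, all 8 libraries and no covariate, with Benjamini-Hochberg adjustment, tested on simulated data. CPM uses TMM-scaled totals, and log2 CPM a prior count of 2. No library was a copy of another by a chi-square test of counts. Genes named are the 10 genes, Ccna2, Epcam, Apoc3, Apoa5, Mttp, Mogat2, Hnf4a, Hnf4g, Gata4, Cdx2, the 3 smallest adjusted p of each list and the 3 genes most like Sis, Fabp1, Apoa4 (both untested) and Npc1l1; Apobec1, Slc6a19, Slc7a7, Slc15a1, Ang4, Pla2g2a, Mptx1, Akp3, Alb, Fga, Fgb and Fgg were added after seeing values. A few genes that this rule names are not reported here. The members and lists were chosen with earlier results of these data known. Alternatives were upper quartile or RLE scaling, keeping all genes with 1 count, a minimum of 1 CPM throughout a group, limma voom (limma 3.58.1), DESeq2 1.42.0, non-robust dispersions, the replicate number, the number set, the most counted transcript, keeping rows without symbol, a prior count of 0.5 and leaving out each library. Fits within each number set, and list counts under these, were added after seeing the data.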

Additional observations from a re-analysis of the deposited data

Results flagged for a closer look

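The Fabp2 level of Ccna2-KO replicate 3 stood apart from the rest of its group, at 9.01 on the log2 CPM scale against 9.35 to 9.42 in the other 3 libraries. The gap was 0.836 of the whole range, above Dixon's critical value of 0.829 for 4 samples. Chance flags about 1 in 20 such groups. It was the only one of 16 groups tested (7 genes and Ccna2, in each of the 2 labels) past that value.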

How the results depend on the processing

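The call of Npc1l1 held in every alternative run, that of Sis in all except the most counted transcript, that of Treh in all except that and the low number set alone, and that of Apob in all except the low number set alone and without control replicate 4. The number of the 10 genes called higher was 2 with the most counted transcript alone, against 4. It was 3 to 4 with single libraries left out. The number called lower was 0 throughout. Of all 15893 genes, 1924 were called, against 2949 with DESeq2, 2892 with the number set term, 930 with the most counted transcript, 1226 within the low and 4295 within the high number set, and 972 to 4627 with single libraries left out. The 4627 is without control replicate 1, which stands apart from the other controls, and the other fits gave 972 to 1719. Same-numbered replicates did not deviate together (correlations of -0.07, -0.35, -0.26 and 0.15), so the numbers were not taken as pairs. With the replicate block 987 genes were called, the 4 calls held, 4 of the 10 T cell and leukocyte genes were lower, and not every sample was closest to its own number. The log2 fold change of Ccna2 was -0.58 to 0.24 with single libraries left out, and reversed to 0.24 without control replicate 1, while within the high set, where that library is the only control, it was -1.19 and called (adjusted p = 0.0108). Near 0, Fabp2 reversed with the number set term (0.0052), within the low set (0.074) and with single libraries left out (-0.082 to 0.062), and Hnf4a with the most counted transcript (-0.12) and with single libraries left out (-0.094 to 0.072). Without control replicate 1, Ttr reversed to 0.72 (range -1.15 to 0.72) and Cela1 to 0.022 (range -1.29 to 0.022). Tat reversed with the number set term (0.45) and with single libraries left out (-0.30 to 0.10). Where a value moved, the cause was not tested. Depth limits Lct, Fabp1, Apoa1 and Apoa4, each at 99 counts or fewer in either group.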
